A study of Mus musculus with 6 samples.

Results

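The 10 marker genes examined mark liver sinusoidal endothelial cells: Pecam1, Stab1, Stab2, Lyve1, Clec4g, Kdr, Oit3, Fcgr2b, Gpr182 and Cdh5. They were taken by gene name, and all 10 were found once in the table of each mouse, among 47232 gene names with a usable value in every mouse. The tables hold RNA-Seq of liver from 3 laboratory mice and 3 wild mice. The laboratory mice were inbred C57BL/6, all male, 17 to 18 weeks old, and were killed by cervical dislocation when they arrived from the supplier. The wild mice were outbred adults live-trapped at 2 places, 1 male (wild mouse 1) and 2 females (wild mice 2 and 3), whose ages were not given. They were kept for 3 months before they were killed in the same way. The labels name no engineered allele and no treatment for any mouse. Sex in part, genetic background, housing and the handling of the animals therefore differ between the groups, and age may. Apart from sex, which 1 wild male shares with the laboratory mice, they cannot be told apart.

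Sinusoidal endothelial cells line the capillaries of the liver. They are fenestrated, lack an organised basement membrane, and clear waste molecules from the blood through scavenger and lectin receptors, which sets them apart from the endothelium of larger vessels. The uptake system is represented by 5 of the markers. Stab1 and Stab2 encode the stabilins, large scavenger receptors, Lyve1 a hyaluronan receptor, Clec4g a C-type lectin, and Fcgr2b an inhibitory Fc receptor that binds immune complexes. Pecam1 and Cdh5 encode the adhesion molecules CD31 and VE-cadherin of endothelial cell contacts, Kdr the main signalling receptor for vascular endothelial growth factor A, Gpr182 an atypical chemokine receptor, and Oit3 a protein with a zona pellucida domain. Pecam1, Cdh5 and Kdr are made by endothelium in general, whereas the uptake receptors are more restricted.

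Levels are given as FPKM (fragments per kilobase of transcript, scaled to the mapped fragments of the library), which can be compared between genes. They are also given as zFPKM, the deposited rescaling of log2 FPKM in which 0 is the main peak of expressed genes in that mouse and 1 unit is 1 SD of that peak. The peak lay at log2 FPKM 0.49, 0.79 and 2.12 in laboratory mice 1 to 3. In wild mice 1 to 3 it lay at 2.51, 1.31 and 1.77. Its SD in log2 FPKM was 3.11, 3.05 and 2.51 in laboratory mice 1 to 3 and 2.69, 3.12 and 2.89 in wild mice 1 to 3. The same FPKM therefore gives a different zFPKM in different mice, also within a group, and 1 unit of zFPKM is not the same fold in each. Expression of all 10 markers was detected in all 6 mice. Each lay in the medium class of the study, zFPKM between -2 and 2, in every mouse, except for Lyve1 in wild mouse 1 at -2.15. The order of the genes was partly fixed. Clec4g was the highest of the 10 in all 6 mice (geometric mean 17.1 FPKM), Fcgr2b the second (9.24 FPKM) and Lyve1 the lowest (0.564 FPKM). Between them the geometric means ran from Gpr182 (3.39 FPKM) and Stab2 (3.39 FPKM) through Oit3 (2.91 FPKM), Stab1 (2.59 FPKM), Pecam1 (1.99 FPKM) and Cdh5 (1.59 FPKM) to Kdr (1.43 FPKM). Each neighbouring pair from Gpr182 to Kdr stood in the opposite order in at least 2 mice, so this middle order does not exceed the spread between mice. Among the 18619 genes tested, the markers lay between the 23.5 percentile (Lyve1 in wild mouse 1) and the 90.7 percentile (Clec4g).

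**Figure D1:**
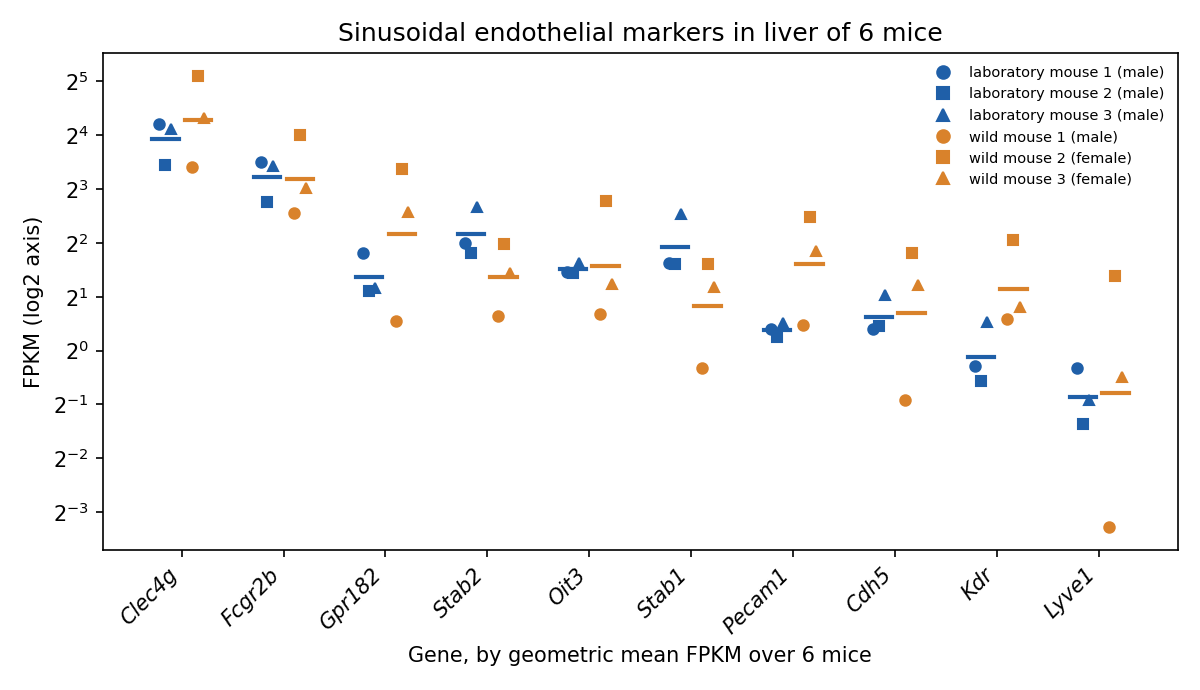
FPKM (log2 axis) of the 10 sinusoidal endothelial markers, ordered by geometric mean, with 1 point per mouse (laboratory blue, wild orange) and a bar at the geometric mean of each group of 3. Wild mouse 2 is the highest of the 6 mice for 8 genes and wild mouse 1 the lowest for 8, and Kdr is the only gene whose groups do not overlap.

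The comparison of laboratory with wild liver asks whether the markers differ with the origin of the mice. By limma on zFPKM none of the 10 passed an adjusted p of 0.05, and Stab1 and Stab2 were the only ones with an unadjusted p under 0.05 (0.0112 and 0.0233). Of all tested genes, 14.4% passed, 7.17% as higher and 7.28% as lower in laboratory mice. The median difference of the 10 markers was 0.24 zFPKM, higher in laboratory mice, against 0.005 over all tested genes. On log2(FPKM + 0.1), where 46.1% of tested genes passed and the median of all tested genes was -0.47, the markers' median was -0.17 and again 0 of 10 passed. As liver was sequenced in bulk, fewer endothelial cells and less RNA per endothelial cell cannot be told apart.

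The stabilins were the markers with the largest differences on zFPKM. Stab1 measured 3.07, 3.03 and 5.82 FPKM in laboratory mice 1 to 3 and 0.801, 3.05 and 2.27 FPKM in wild mice 1 to 3. Wild mouse 2 thus overlapped the laboratory mice in FPKM. In zFPKM the groups did not overlap, with 0.36, 0.26 and 0.17 in laboratory liver against -1.05, 0.09 and -0.20 in wild liver. Laboratory mouse 3 had the highest Stab1 FPKM but the lowest zFPKM of the laboratory mice. Wild mouse 2 lay below laboratory mouse 2 in zFPKM but not in FPKM. The part of the place and SD of the peak of each mouse in this separation was not tested. The zFPKM difference between the groups was 0.65 ± 0.257 (SE, adjusted p = 0.0687 by limma, and between 0.0107 and 0.606 over 19 alternatives). It was 0.32 without wild mouse 1 and 0.89 without wild mouse 2. Stab2 gave 4.003, 3.53 and 6.33 FPKM in laboratory mice 1 to 3, and the wild mice gave 1.57, 3.96 and 2.72 FPKM, again with an overlap through wild mouse 2 alone. Its zFPKM did not overlap, but only just, with a lowest laboratory value of 0.2173 and a highest wild value of 0.2165, and differed by 0.54 ± 0.239 (SE, adjusted p = 0.116 by limma, and between 0.00714 and 0.737 over the alternatives). Stab1 and Stab2 were thus 2 of 10 markers without overlap in zFPKM, both higher in laboratory mice, where 28.3% of tested genes had no overlap and 14.2% had none and were higher in laboratory mice. Both passed with the sex of the mice as a term (Stab1 1.32, adjusted p = 0.0123 by limma; Stab2 1.04, adjusted p = 0.0313), a fit that rests on wild mouse 1 as the only wild male. That fit moved the median of all tested genes to 0.27, and 6.04% of them passed as higher in laboratory mice. Both also passed after quantile normalisation (18.7% of tested genes higher), with the median of each mouse set at 0 (14.4% higher) and after a trend with transcript length was removed (6.01% higher), and Stab1 passed without wild mouse 2 (adjusted p = 0.0420).

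Of the uptake receptors, Lyve1 was the most variable. It measured 0.801, 0.391 and 0.530 FPKM in laboratory liver against 0.103, 2.62 and 0.715 FPKM in wild liver, and both the lowest and the highest mouse were wild, 25.5-fold apart. The bounds given with the FPKM of wild mouse 1 were 0.0148 and 0.191 FPKM. Clec4g, at 18.5, 10.9 and 17.4 FPKM in laboratory liver and 10.6, 34.4 and 19.9 FPKM in wild liver, overlapped between groups (difference 0.14 ± 0.165 zFPKM). Fcgr2b overlapped too, with 11.3, 6.75 and 10.7 FPKM in laboratory liver and 5.89, 15.9 and 8.12 FPKM in wild liver (0.27 ± 0.188 zFPKM). B cells and macrophages also make Fcgr2b, and the summed FPKM of 8 B cell genes was 4.56 to 5.76 in laboratory liver and 1.002 to 2.38 in wild liver, with 3 of the 8 higher in laboratory liver by limma, against 7.17% of tested genes. That count was 1 without laboratory mouse 1, 1 without laboratory mouse 2 and 4 without laboratory mouse 3. Erythrocyte genes were higher in laboratory liver too (6 of 8, against 7.17% of tested genes, median difference 0.88 zFPKM). The part of B cells and of blood in Fcgr2b was not tested. Fcgr2b followed Clec4g closely in laboratory liver. The ratio of their FPKM, a pair picked after its values were seen, was 0.613, 0.618 and 0.615 in laboratory mice 1 to 3. It was 0.555, 0.463 and 0.408 in wild mice 1 to 3, below all laboratory mice. Of the 50-base stretches of the longest Fcgr2b transcript, 7.12% also occur in transcripts of other genes, Fcgr3 among them, so part of its reads could have been shared. For Gpr182 that share was 0.23%, and for the other 8 markers 0.

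Both adhesion molecules were highest in wild mouse 2 and next in wild mouse 3. Pecam1 was nearly level among laboratory mice, at 1.31, 1.20 and 1.42 FPKM, and measured 1.39, 5.55 and 3.61 FPKM in the wild mice. Wild mouse 1, the wild male, lay within the laboratory range and both females lay above it, with means of 1.31 ± 0.114 and 3.52 ± 2.08 FPKM (SD, n = 3 each). An exact permutation test gave p = 0.2, two-sided, for FPKM, where the smallest p that 3 against 3 mice allow is 0.1. Cdh5 measured 1.33, 1.37 and 2.03 FPKM in laboratory liver against 0.533, 3.52 and 2.32 FPKM in wild liver. Wild mouse 1 was below and the females above the whole laboratory range (means 1.58 ± 0.395 and 2.12 ± 1.50 FPKM, SD, n = 3 each, p = 0.6, exact permutation test).

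Kdr was the only marker without overlap in FPKM. It measured 0.815, 0.672 and 1.44 FPKM in laboratory liver and 1.50, 4.16 and 1.74 FPKM in wild liver. The closest values, laboratory mouse 3 and wild mouse 1, were nearly equal. The wild mean was 2.47 ± 1.47 FPKM and the laboratory mean 0.976 ± 0.409 FPKM (SD, n = 3 each, p = 0.1, exact permutation test, the smallest possible). Of tested genes, 55.8% had no overlap in FPKM and 43.7% had none and were lower in laboratory mice (12.1% higher), so 1 of 10 markers is below the background. This count depended on single mice. It was 3 without laboratory mouse 2, 2 without laboratory mouse 3, 5 without wild mouse 1 and 4 without wild mouse 2, with Kdr in each. On zFPKM the groups of Kdr overlapped (difference -0.17 ± 0.302, adjusted p = 0.780 by limma).

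Gpr182 measured 3.51, 2.15 and 2.23 FPKM in laboratory mice 1 to 3, and the wild mice gave 1.47, 10.4 and 5.96 FPKM. As for Cdh5, the wild male was below and the wild females above all laboratory mice. Oit3 was nearly level in laboratory liver at 2.75, 2.71 and 3.10 FPKM, and spread around those values in wild liver at 1.61, 6.87 and 2.37 FPKM. Neither passed on zFPKM (Gpr182 -0.02 ± 0.241, Oit3 0.24 ± 0.250, SE, adjusted p = 0.970 and 0.607 by limma). These SEs draw on a variance trend over all tested genes, and were 0.384 and 0.316 without it.

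**Figure D2:**
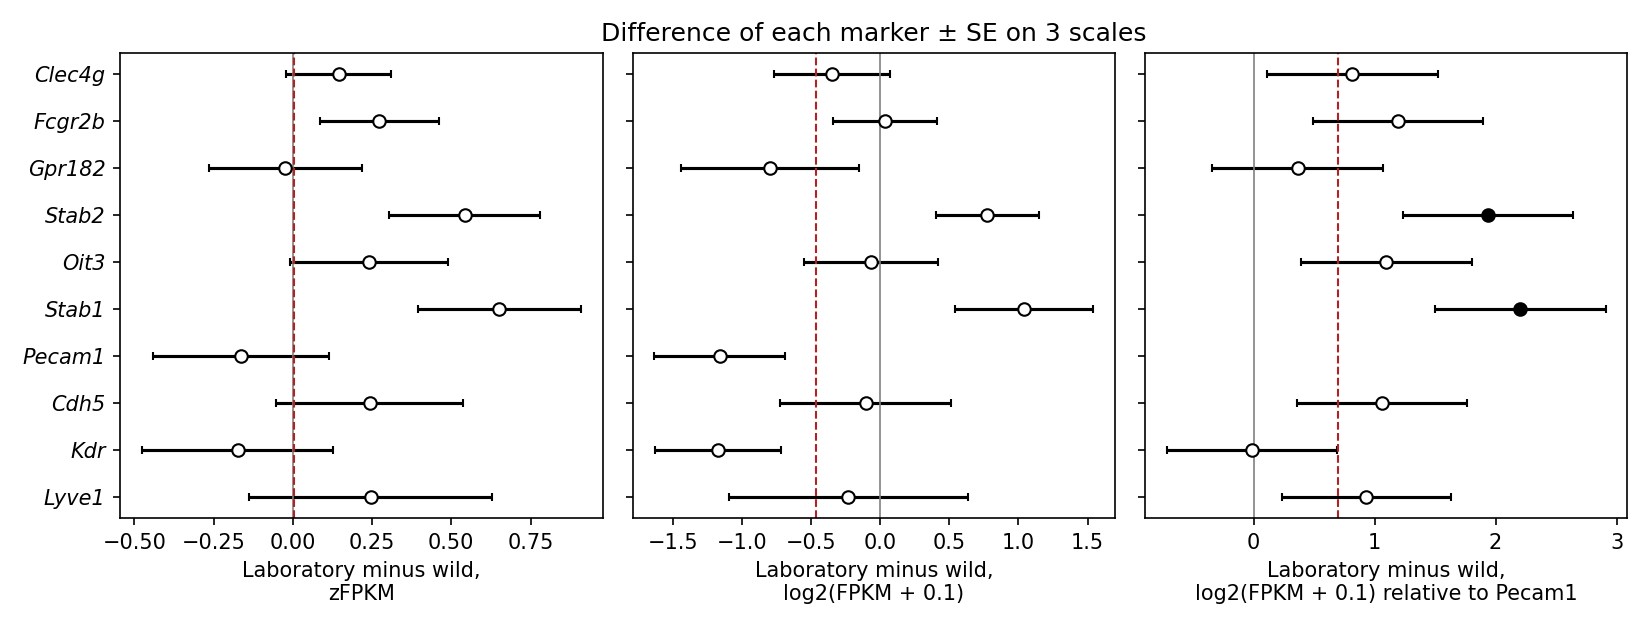
Laboratory minus wild difference of each marker (point) with its SE (bar) by limma on zFPKM, on log2(FPKM + 0.1) and on log2(FPKM + 0.1) relative to Pecam1, with filled points at an adjusted p under 0.05, a grey line at 0 and a dashed red line at the median of all tested genes. No marker is filled on the first 2 scales, and Stab1 and Stab2 are filled on the third.

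The direction of several markers depended on the scale. Stab1, Stab2 and Fcgr2b were higher and Pecam1, Kdr and Gpr182 lower in laboratory liver on both zFPKM and log2(FPKM + 0.1). The zFPKM differences of Lyve1, Clec4g, Oit3 and Cdh5 were positive (0.25, 0.14, 0.24 and 0.24) and those on log2(FPKM + 0.1) negative (-0.23, -0.35, -0.065 and -0.10). No marker passed on either scale, and the sign of Pecam1, Kdr and Gpr182 turned on zFPKM when wild mouse 2 was left out (0.08, 0.08 and 0.27).

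Much of the variation lay among the wild mice. In zFPKM, wild mouse 1 was the lowest of the 6 mice for all 10 markers and wild mouse 2 the highest for 7. In FPKM each of these counts was 8. The peak that sets 0 of zFPKM also lay highest in wild mouse 1 (log2 FPKM 2.51). The summed FPKM of the 10 markers was 25.5 in wild mouse 1, 90.4 in wild mouse 2 and 49.7 in wild mouse 3, against 47.4, 32.7 and 51.0 in the laboratory mice. The highest wild mouse exceeded the lowest by between 2.53-fold (Stab2) and 25.5-fold (Lyve1), with 7.05-fold for Gpr182 and 6.60-fold for Cdh5. Among laboratory mice this span was between 1.14-fold and 2.14-fold. Wild mouse 1 is also the only wild male, so its sex and its other features cannot be told apart. The sums for other cell types also differed between mice. Kupffer cell genes, 12 of 12 measured, summed to 38.7 FPKM in wild mouse 1, 142 in wild mouse 2 and 297 in wild mouse 3, against 71.1 to 118 in laboratory mice. Of the 12, only Folr2 passed (adjusted p = 0.00828 by limma, and in 2 of 6 fits with 1 mouse left out). Folr2 was higher in laboratory liver, at 5.07, 3.94 and 1.59 FPKM against 1.99, 0.914 and 0.119 FPKM in wild mice 1 to 3. It was thus lowest in wild mouse 3, where the sum was highest. Genes of hepatic stellate cells went both ways, with 2 of 11 higher (Col1a1, 3.04-fold, and Col3a1, 2.17-fold, both collagens) and 1 lower (Rgs5, 7.35-fold higher in wild liver). Of all tested genes, 7.17% were higher and 7.28% lower. With 1 mouse left out in turn, Col1a1 passed in 2 of 6 fits, Col3a1 in 3 and Rgs5 in 3. On log2(FPKM + 0.1) 1 of the 11 was higher and 5 were lower, where 46.1% of tested genes passed and 37.9% were lower. The 11 stellate genes summed to 42.1 to 63.3 FPKM in laboratory liver and 89.5 to 158 in wild liver. Dcn was the highest of them, at 21.7, 32.4 and 25.6 FPKM against 62.7, 112 and 77.2 FPKM. Hepatocyte genes, with 8 of 12 measured, also split, with Ttr and Apoa1 higher and Tat, Ass1 and Cyp3a11 lower in laboratory liver. With 1 mouse left out in turn, Ttr, Apoa1 and Tat passed in all 6 fits. Ass1 passed in 1 and Cyp3a11 in 3 of the 6 (adjusted p up to 0.109 and 0.668 by limma). On log2(FPKM + 0.1) Ttr and Cyp3a11 did not pass (adjusted p = 0.105 and 0.111). Erythrocyte genes were higher in laboratory liver for 6 of 8, against 7.17% of tested genes, and for between 3 and 8 with 1 mouse left out. They summed to 1341 to 5138 FPKM in laboratory liver against 724 to 1582 in wild liver. Cholangiocyte genes summed to 29.7 to 64.6 FPKM in laboratory and 12.2 to 27.6 in wild liver, with 1 of 6 higher, against the same 7.17%. That gene, Spp1, made up most of each sum, at 25.9, 55.0 and 51.0 FPKM against 16.3, 23.0 and 10.6 FPKM. Spp1 and Krt19 had no overlap in FPKM, where 12.1% of tested genes had none and were higher in laboratory mice. Krt7, Epcam, Sox9 and Cftr overlapped. None of the genes measured for these cell types was at 0 in every mouse. The part of cell composition in the marker values was not tested.

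Ratios between markers within a mouse do not depend on how its library was scaled. Relative to Cdh5, 3 of the 9 other markers had no overlap between groups, against 29.2% of tested genes (6.82% higher and 22.4% lower in laboratory mice). Stab1 was higher in laboratory liver, at 2.32, 2.21 and 2.86 times Cdh5 against 1.50, 0.866 and 0.981 times in the wild mice. Pecam1 was lower, at 0.989, 0.873 and 0.701 times Cdh5 against 2.61, 1.58 and 1.56 times. Kdr was lower too, at 0.615, 0.491 and 0.709 times Cdh5 against 2.82, 1.18 and 0.751 times. Every laboratory mouse had more Stab1 and less Pecam1 and Kdr per unit of Cdh5 than every wild mouse. Both the 3 of 9 and the 2 of 9 lower are near the shares over all tested genes. The count was 5 of 9 without laboratory mouse 1 and also without wild mouse 1. The differences in mean log2 ratio were 1.17 (Stab1), -1.14 (Pecam1) and -1.18 (Kdr), each with p = 0.1 by a two-sided exact permutation test, the smallest that 3 against 3 allow.

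Relative to Pecam1, 6 of 9 markers had no overlap, all 6 higher in laboratory liver, where 30.8% of tested genes had no overlap and 22.6% had none and were higher, with 8.29% lower. Stab1 was at 2.34, 2.53 and 4.09 times Pecam1 in laboratory liver against 0.577, 0.548 and 0.630 times in wild liver, 4.96-fold apart in the geometric mean. Stab2 was at 3.05, 2.95 and 4.45 times Pecam1 against 1.13, 0.713 and 0.754 times, 4.04-fold apart. Stab1 and Stab2 therefore exceeded Pecam1 in all 3 laboratory mice, and Stab1 was below it in all 3 wild mice. The other markers without overlap were Fcgr2b (difference in mean log2 ratio 1.25), Oit3 (1.15), Cdh5 (1.14) and Clec4g (0.86). Lyve1, Kdr and Gpr182 overlapped. With each mouse left out in turn, the difference lay between 2.06 and 2.46 for Stab1 and between 1.83 and 2.22 for Stab2, with no overlap in any of the 6 cases. By limma on log2(FPKM + 0.1) relative to Pecam1, Stab1 (2.20, adjusted p = 0.0186) and Stab2 (1.94, adjusted p = 0.0441) passed, as did 14.3% of tested genes, whereas relative to Cdh5 no marker passed (0 of 9, and 4.15% of tested genes).

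**Figure D3:**
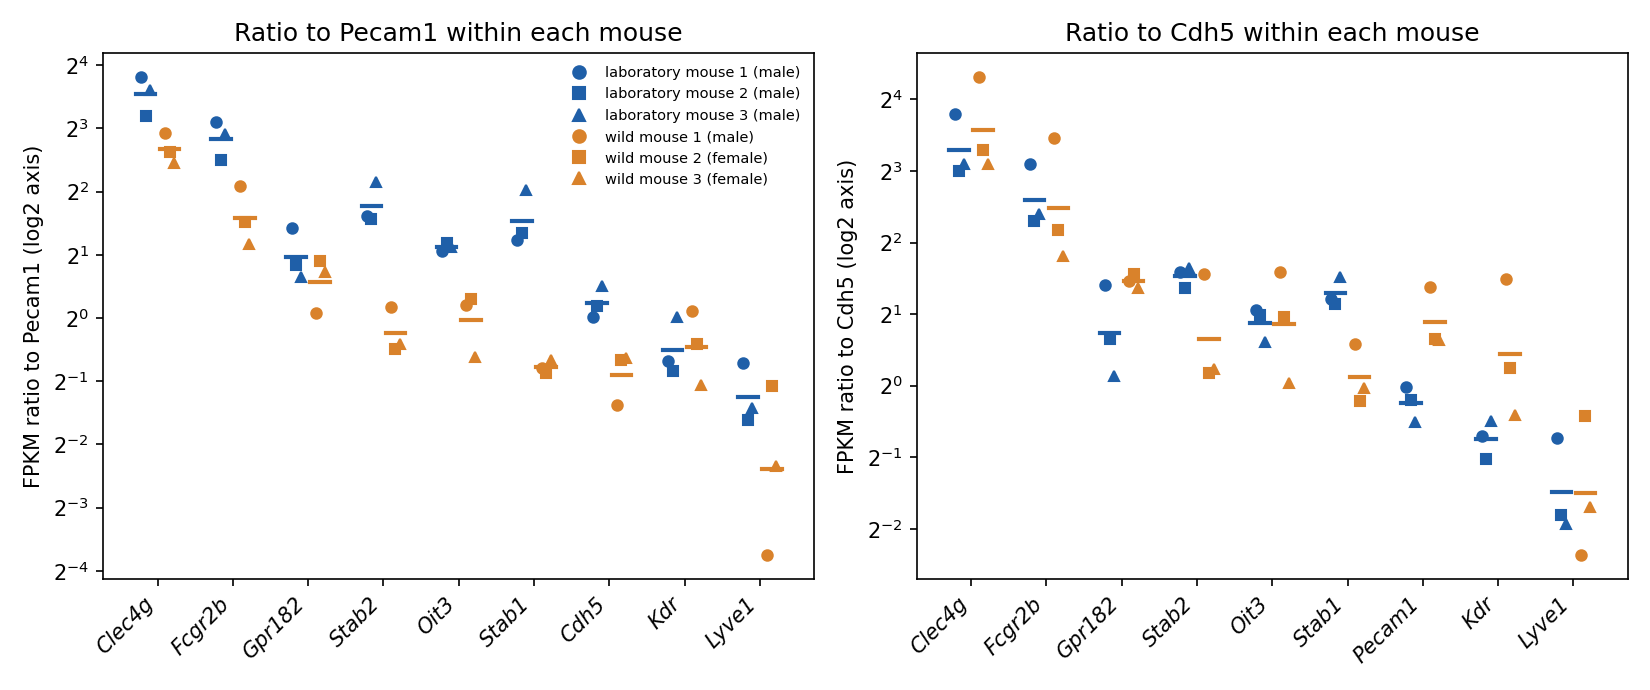
FPKM ratio of each other marker to Pecam1 (left) and to Cdh5 (right) within each mouse on a log2 axis, with 1 point per mouse and a bar at the geometric mean of each group of 3. For this scale-free measure, 6 ratios to Pecam1 and 3 ratios to Cdh5 have no overlap between laboratory (blue) and wild (orange) mice.

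Over all 45 pairs of markers, 21 ratios had no overlap between groups, which is 46.7% against 32.8% of the ratios of every tested gene to every marker. The pairs share genes and are not independent. Stab1 and Stab2 each took part in 6 of the 21, always as the gene that was higher in laboratory liver, and Pecam1 and Kdr each in 6, always as the gene that was lower. The largest difference was that of Stab1 to Kdr. This ratio was 3.77, 4.51 and 4.04 in laboratory liver against 0.533, 0.732 and 1.31 in wild liver, 5.13-fold apart in the geometric mean. The ratio of Stab2 to Kdr was 4.91, 5.25 and 4.39 in laboratory liver against 1.04, 0.953 and 1.56 in wild liver, 4.18-fold apart. The ratio of Stab1 to Stab2 overlapped, at 0.768 to 0.920 in laboratory liver and 0.512 to 0.835 in wild liver, and so did that of Pecam1 to Kdr, at 0.988 to 1.78 and 0.925 to 2.07. No ratio that involved Lyve1 separated the groups.

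**Figure D4:**
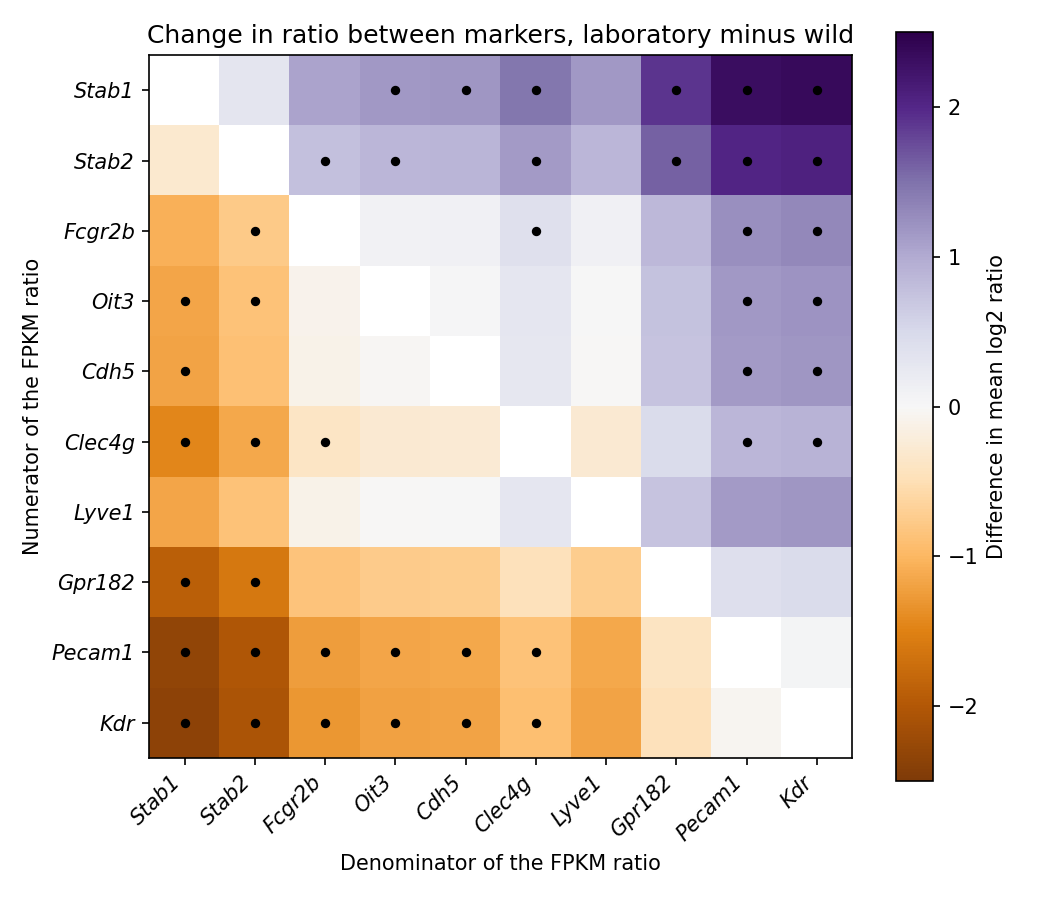
Difference, laboratory minus wild, in the mean log2 FPKM ratio of the gene in the row to the gene in the column for all 45 pairs of markers (purple higher, orange lower in laboratory mice), with a dot where the groups do not overlap. Stab1 and Stab2 to Pecam1 and Kdr are the strongest fields, and Lyve1 has no dot.

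Stab1 and Stab2 also have the longest transcripts of the 10 genes (7999 and 8228 bases), and expression fell with transcript length more steeply in laboratory than in wild mice (log2 FPKM changed by -0.31 to -0.19 per doubling of length in laboratory mice and by -0.15 to -0.09 in wild mice). Once that trend was taken out in each mouse, the differences to Pecam1 were 2.49 for Stab1 and 2.20 for Stab2, and the groups did not overlap. The part of transcript length in these differences, beyond that trend, was not tested.

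In GRCm38.p6, the build of the files, Stab1 lies at chr14:31139017-31168651, Stab2 at chr10:86841194-87008038, Kdr at chr5:75932827-75979072, Pecam1 at chr11:106654213-106715281, Lyve1 at chr7:110850607-110862953, Clec4g at chr8:3707066-3720695, Oit3 at chr10:59422960-59441779, Fcgr2b at chr1:170960558-170976071 and Gpr182 at chr10:127749602-127751798, all on the minus strand. Cdh5 is at chr8:104101613-104144504 on the plus strand. Sequence before the start is shown for Stab1 and Stab2, whose ratio to each other overlapped between groups, and for Clec4g, the highest marker, relative to which both were higher in every laboratory mouse. A RefSeq table of promoters held 5 of the 10 markers, with 250 bases before the start it gives. Of these, 10 bases for Stab1, 96 for Stab2 and 44 for Clec4g lie inside the gene as RefSeq or GENCODE places its outer end, and are left out. For Kdr and Fcgr2b all 250 do, so none are shown. The bases follow from chr14:31168652-31168891, chr10:87008039-87008192 and chr8:3720696-3720901, 5′ to 3′ on the minus strand, with matches to AGGAAG, the core of many ETS factor sites, or its reverse complement in capitals.
Stab1: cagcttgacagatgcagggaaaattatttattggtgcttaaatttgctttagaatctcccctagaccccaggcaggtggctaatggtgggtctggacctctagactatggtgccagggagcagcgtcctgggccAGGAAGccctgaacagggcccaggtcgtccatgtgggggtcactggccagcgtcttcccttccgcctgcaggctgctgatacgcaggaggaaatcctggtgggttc
Stab2: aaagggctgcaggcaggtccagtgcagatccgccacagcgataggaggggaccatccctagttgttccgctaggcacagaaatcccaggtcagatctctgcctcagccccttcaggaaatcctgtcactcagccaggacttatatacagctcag
Clec4g: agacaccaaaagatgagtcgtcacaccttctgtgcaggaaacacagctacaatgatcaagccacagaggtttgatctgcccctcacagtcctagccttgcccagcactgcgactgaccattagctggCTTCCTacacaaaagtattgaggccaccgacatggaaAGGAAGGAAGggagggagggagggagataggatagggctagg
The 240 bases of Stab1 held 1 match, the 154 of Stab2 held 0 and the 206 of Clec4g held 3, of which 2 overlap. Of 32851 promoters, 28.4%, 18.6% and 24.5% held at least 1 in the same stretch before their own start. The letters GATAA, on either strand, were in none of the 3 windows, and in 7237, 5256 and 6488 of the 32851 promoters. A match describes the letters only.

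Genes that work with the markers, or share their cell type, were followed in lists. In the growth factor system around Kdr, 9 of 10 genes were tested, and 3 were higher and 1 lower in laboratory liver (7.17% and 7.28% of all tested genes). Vegfa, the ligand of Kdr, measured 24.8, 27.4 and 79.3 FPKM in laboratory liver against 13.8, 12.4 and 26.9 FPKM in wild liver (0.69 ± 0.152 zFPKM, adjusted p = 0.000176 by limma). Laboratory mouse 3 stood far above the rest, and wild mouse 3 overlapped laboratory mouse 1. Vegfa passed with each mouse left out in turn, but not on log2(FPKM + 0.1) (adjusted p = 0.0842). Vegfd was higher too, and so was the co-receptor Nrp1, at 14.6, 12.1 and 11.5 against 9.74, 9.87 and 4.23 FPKM (adjusted p = 0.0441 by limma, and 0.0985 on log2(FPKM + 0.1)). Nrp1 lost its call without laboratory mouse 1, laboratory mouse 2, wild mouse 1 or wild mouse 3 (adjusted p up to 0.362), and Vegfd without laboratory mouse 3 (adjusted p = 0.0715). Nrp2, a relative of Nrp1, went the other way, at 0.296, 0.289 and 0.376 FPKM in laboratory and 2.45, 3.83 and 3.20 FPKM in wild mice (adjusted p = 0.0484 by limma). With 1 mouse left out, Nrp2 passed without wild mouse 1 and not without any of the other 5 (adjusted p up to 0.304), and neither neuropilin passed with sex as a term. Every wild mouse exceeded every laboratory mouse in Nrp2, with means 9.86-fold apart.

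Of 11 tested junction partners, 2 were lower in laboratory liver, against 7.28% of tested genes, and none higher. Both are catenins that bind VE-cadherin and other cadherins. Ctnnb1 measured 9.41, 13.8 and 11.2 FPKM in laboratory liver and 56.9, 61.7 and 65.1 FPKM in wild liver (adjusted p = 0.00158 by limma), and Ctnnd1 was 5.17-fold higher in wild liver (adjusted p = 0.0172). Neither passed with sex as a term or without wild mouse 3 (adjusted p = 0.0609 and 0.177), and Ctnnd1 did not without wild mouse 2 (0.167) or laboratory mouse 3 (0.0547). Both genes are expressed by hepatocytes too. Cdh5, their partner in endothelium, overlapped between the groups as given above. Without laboratory mouse 3 and wild mouse 1, 6 of the 11 were lower, a fit in which 15.9% of all tested genes were. On log2(FPKM + 0.1) 7 of the 11 were lower, against 37.9% of tested genes. The number lower was 6 after quantile normalisation and 0 with sex as a term, without a variance trend or without wild mouse 3.

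Among 23 pan-endothelial genes tested, 2 were higher in laboratory liver and none lower, a share near the 7.17% of all tested genes. The number higher was 7 after quantile normalisation, 7 with sex as a term, 6 with the median at 0, and 0 with a floor of -5 or without a variance trend. After quantile normalisation and with the median at 0, 1 was lower. On log2(FPKM + 0.1) 2 were higher and 2 lower, where 46.1% of tested genes passed and 37.9% were lower. The 2 lower were Calcrl (2.71-fold higher in wild liver) and S1pr1. S1pr1 measured 3.26, 5.07 and 4.15 FPKM in laboratory liver against 17.2, 11.8 and 20.2 FPKM in wild liver. Robo4, an endothelial guidance receptor, measured 2.79, 3.24 and 5.49 FPKM in laboratory mice 1 to 3, and the wild mice gave 0.528, 2.18 and 1.28 FPKM (0.86 ± 0.274 zFPKM, adjusted p = 0.0170 by limma). Ramp2, part of the adrenomedullin receptor, measured 10.6, 6.47 and 8.95 FPKM against 2.87, 6.31 and 4.90 FPKM (0.58 ± 0.206 zFPKM, adjusted p = 0.0389). As with the stabilins, wild mouse 1 was lowest for both, but here the FPKM of the groups did not overlap. Both kept the call when wild mouse 2 was left out and lost it when any other mouse was (adjusted p up to 0.140 for Robo4 and 0.364 for Ramp2). With laboratory mouse 3 and wild mouse 1 both left out, Robo4 passed (0.0427) and Ramp2 did not (0.0522). Of 12 genes of larger vessels, Sox17, an arterial transcription factor, was the only one that passed, where 14.4% of all tested genes did. It was 5.66-fold higher in laboratory liver (adjusted p = 0.0293), a call lost when any 1 mouse was left out (adjusted p between 0.0511 and 0.182).

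Of 22 other genes enriched in sinusoidal endothelium, 1 passed, where 14.4% of all tested genes did. Cd36, a fatty acid and scavenger receptor that hepatocytes and macrophages can also express, was 34.8-fold higher in wild liver, at 25.0, 72.4 and 79.2 FPKM against 1.95, 1.64 and 1.48 FPKM in the laboratory mice (adjusted p = 8.82e-13 by limma). The median difference of these 22 genes was -0.01 zFPKM. On log2(FPKM + 0.1) 6 of the 22 were lower in laboratory liver, a smaller share than the 37.9% of all tested genes, with a median of -0.71 against -0.47 over all tested genes. The summed FPKM of the list was 33.8 to 44.9 in laboratory liver and 71.2 to 185 in wild liver, Cd36 included.

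By likeness to the mean zFPKM of the 10 markers over the 6 mice, the 5 closest of 18609 other tested genes were Egflam (Pearson r = 0.998), Cc2d2a (0.996), Rnf157 (0.996), Wiz (0.996) and Cox4i2 (0.995). The mean zFPKM of the markers was 0.32, 0.10 and -0.18 in laboratory liver against -0.77, 0.43 and -0.02 in wild liver. These r values are the highest among many genes over only 6 points, and the points of a mouse share its library. None of the 5 belonged to an endothelial list, and 4 of them averaged under 0.5 FPKM.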

How the data were processed

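The authors isolated RNA from unfixed liver with a column kit, prepared stranded poly(A) libraries, aligned the reads to the repeat-masked GRCm38.p6 genome with kalign and computed FPKM with the Tuxedo tools. They deposited FPKM and zFPKM, a score scaled within each mouse, and, for 5 of 6 mice, FPKM bounds. Reads of the wild mice were thus also aligned to the C57BL/6J reference. No counts were given, so absolute depth is unknown. Whether counting used strand is not given in the sources used here, and 6 of the markers (Stab1, Stab2, Clec4g, Fcgr2b, Gpr182 and Cdh5) overlap genes on the opposite strand.

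Names listed once in every mouse were kept (47256), and 24 with a failed estimate were left out. zFPKM was floored at -3, and genes above it in at least 3 mice were tested (18619) with limma 3.58.1 in R 4.3.3. Benjamini-Hochberg adjustment ran over all of them, with a threshold of 0.05. The fit drew the variance of each gene towards a trend with mean level over all tested genes. An SE by limma is therefore not the spread of that gene alone. The script was tested on simulated data. FPKM and within-mouse FPKM ratios were compared by two-sided exact permutation tests. The named genes are the 10 markers, called genes of each list with the largest zFPKM differences (up to 3 in each direction), and the 5 genes most like the markers. The markers and lists were chosen with earlier results of these data known. The p-values measure the spread between these mice only.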

Additional observations from a re-analysis of the deposited data

How the results depend on the processing

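No paired analysis was possible because the groups hold different animals and the labels number none of them, so the mouse numbers used here are names only. Fits with the transcript length trend removed, without both laboratory mouse 3 and wild mouse 1, and centred on Cdh5 or Pecam1 were chosen after seeing the data. Of the 10 markers, 2 (Stab1 and Stab2) passed after quantile normalisation, with the median at 0, with sex as a term, with the length trend removed and centred on Pecam1, and 0 passed in the other fits on all mice and without both mice (for the fit centred on Pecam1, 2 of 9). With 1 mouse left out, between 0 and 1 passed. Stab1, Stab2 and Fcgr2b kept their direction in all 19 alternatives. The tested genes that passed, 2690 in the main comparison, were 8589 on log2(FPKM + 0.1), 8242 on log2(FPKM + 1), 7282 after quantile normalisation, 5270 with the median at 0, 23 without a filter, 795 without a variance trend, 1374 with sex, 5676 without both mice, 772 centred on Cdh5, and between 1420 (without wild mouse 3) and 2556 with 1 mouse left out. The causes were not tested.

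Signs turned as follows. On log2(FPKM + 0.1) the differences were -0.23 (Lyve1), -0.35 (Clec4g), -0.065 (Oit3) and -0.10 (Cdh5), and on log2(FPKM + 1) they were -0.28, -0.34, -0.092 and -0.15. That of Gpr182 was 0.0055 after quantile normalisation, 0.011 with the median at 0, 0.0063 with the length trend removed and 0.36 centred on Pecam1. With sex as a term, Pecam1 was 0.48, Kdr 0.27 and Gpr182 0.78. Without both mice, Lyve1 was -0.11, Clec4g -0.016 and Cdh5 -0.054, and centred on Cdh5, Lyve1 was -0.13 and Clec4g -0.25. With 1 mouse left out, zFPKM differences ran from -0.48 to 0.081 (Pecam1), -0.35 to 0.74 (Lyve1), -0.094 to 0.35 (Clec4g), -0.40 to 0.080 (Kdr), -0.035 to 0.54 (Oit3), -0.18 to 0.54 (Cdh5) and -0.42 to 0.27 (Gpr182), the lowest without wild mouse 1 and the highest without wild mouse 2. Ratios without overlap numbered 6 to Pecam1 in place of 3 to Cdh5, and between 3 and 5 to Cdh5 with 1 mouse left out. Markers without overlap in FPKM numbered between 1 and 5.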
